A study of Homo sapiens with 4 samples.

Results

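Hemidesmosome and laminin-332 genes were examined in MCF10A cells, an untransformed epithelial line from human breast, without modification (wild type) or with HSF1, the heat shock transcription factor, overexpressed (HSF1-pLVX). The set holds 9 listed genes, found by symbol and Ensembl identifier among the 63856 genes of the count table. All 9 passed edgeR's filter on low counts and were among the 15830 genes tested. HSF1-pLVX cells had been stably transduced with a lentivirus carrying the HSF1 coding sequence and selected with puromycin, and wild type cells were unmodified. Both grew in the same medium, for which the study lists horse serum, insulin, hydrocortisone and EGF. RNA-seq was done on 2 replicates of each variant, and library totals ran from 18688109 to 24184285 counts. Cells with the empty vector were not analysed here, so HSF1, the vector and its selection cannot be told apart. The study describes the replicates as biological, without saying whether they were separate cultures or separate transductions, so the p-values below measure only the spread between these libraries.

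Hemidesmosomes are the junctions that fasten the base of an epithelial cell to the basement membrane. At their centre the α6β4 integrin (ITGA6 and ITGB4) spans the membrane together with the transmembrane collagen XVII (COL17A1) and the tetraspanin CD151. Inside the cell, the plakins plectin (PLEC) and BP230 (a product of DST) tie them to keratin filaments. Outside, they bind laminin-332, whose α3 and β3 chains LAMA3 and LAMB3 encode and which anchoring fibrils of collagen VII (COL7A1) connect to the tissue beneath. In the mammary gland these contacts belong mainly to basal cells.

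The libraries were first checked against their labels. HSF1 stood at 200.4 and 189.2 CPM (library-size-scaled read counts after TMM normalization) in wild type replicates 1 and 2, and at 982.4 and 998.6 in HSF1-pLVX cells. Of 6 epithelial markers, 5 were called lower in HSF1-pLVX cells and KRT5 higher, at the threshold given below. Over all tested genes, 33.2% were called lower and 32.7% higher. The summed level of the epithelial markers was between 7931 and 8005 CPM in wild type and between 5627 and 5999.9 in HSF1-pLVX cells. The 7 luminal mammary markers summed to between 5709.7 and 5786 CPM in wild type and to between 1113 and 1361 in HSF1-pLVX cells, with 6 of 7 lower. The 4 basal mammary markers, of which ITGB4 is also one of the 9 genes, summed to between 4615 and 4935 CPM and to between 6449 and 7214, with KRT5 and TP63 higher, KRT14 lower and ITGB4 not called. The 8 fibroblast markers summed to between 18.2 and 24.5 CPM in wild type and to between 61.5 and 64.4 in HSF1-pLVX cells. VIM was the largest in each library. Of the 3 tested, VIM and DCN were higher, DCN from 1 and 3 counts to 94 and 87, and COL1A1 was not called. LUM, COL1A2, COL3A1 and THY1 held 3 counts or fewer in every library. The 3 leukocyte and the 3 endothelial markers held 30 counts or fewer in every library. The part of these shifts in the results below was not tested. In bulk RNA, fewer cells of a type and less RNA per cell cannot be told apart.

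The 9 genes moved in both directions. COL7A1, COL17A1, DST and ITGA6 were higher in HSF1-pLVX cells, PLEC, CD151, LAMA3 and LAMB3 were lower, and ITGB4 did not pass the test. Thus 4 of 9 genes were called higher and 4 lower at an adjusted p of 0.05 (edgeR's quasi-likelihood test). Over all tested genes 32.7% were called higher and 33.2% lower, 65.9% in all, so calls of this number are common in this comparison. At least 2-fold changes were found for 1 gene upwards (COL7A1) and 3 downwards (PLEC, LAMA3 and CD151), beside 14.9% and 14% of all tested genes. The libraries of the variants did not overlap for 8 of the 9 genes, as for 83.1% of all tested genes. For the 9 genes the median change was -0.02 on the log2 scale, beside 0.02 over all tested genes. All 9 genes were abundant, with between 1373 and 102644 counts per library.

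**Figure D1:**
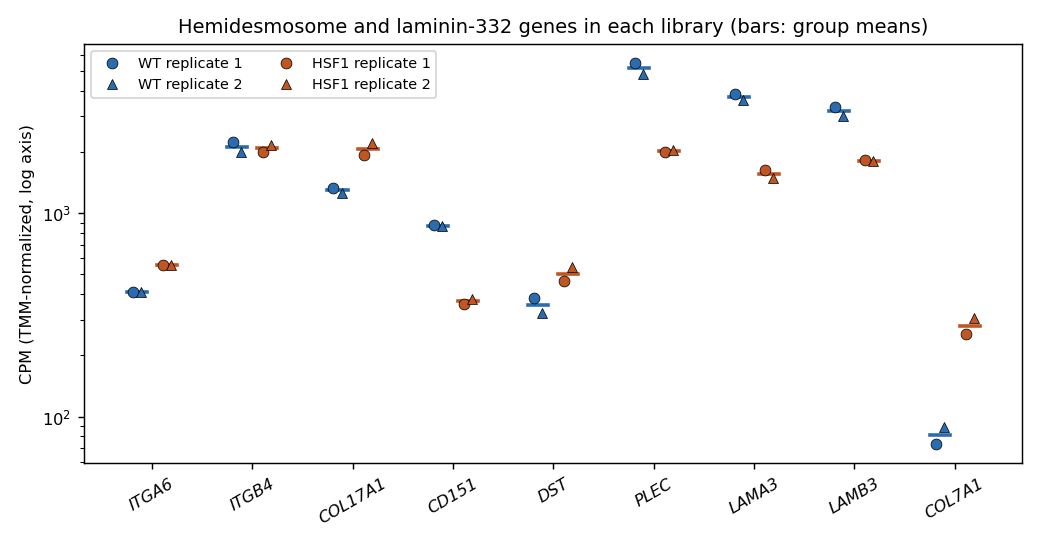
CPM on a log axis of each of the 9 genes in the 4 libraries, with blue for wild type and orange for HSF1-pLVX cells, circles for replicate 1, triangles for replicate 2 and bars for group means. COL7A1 stands lowest and rose from 73.1 and 88.8 to 254.6 and 304.9 CPM, while PLEC fell from 5468 and 4844 to 1992 and 2039, and the ITGB4 points of both variants overlap.

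The integrin was described first, since it is the laminin receptor of the junction. ITGA6 (ENSG00000091409.14, chromosome 2 of hg38, 172427354 to 172506282, plus strand) encodes the α6 chain, which can also pair with the β1 chain. It stood at 411.6 and 409.4 CPM in wild type replicates 1 and 2 and at 555.4 and 558.8 in HSF1-pLVX replicates 1 and 2. The replicates lay within a few CPM of each other and the variants did not overlap. The log2 fold change was 0.44 ± 0.092 (SE), a 1.36-fold rise (edgeR quasi-likelihood F test, adjusted p = 0.0007196). ITGB4 (ENSG00000132470.13, chromosome 17, 75721328 to 75757818, plus strand) encodes the β4 chain, whose only known partner is α6 and whose long tail binds plectin. Its levels were 2244 and 1999.8 CPM in wild type and 2003 and 2171 in HSF1-pLVX cells. These values overlap, and the log2 ratio was -0.16 within replicate 1 and 0.12 within replicate 2. The fitted log2 fold change was -0.02 with a 95% interval from -0.26 to 0.22 (adjusted p = 0.8612 in the same test), so changes of up to 0.833-fold or 1.16-fold are inside the interval.

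Per kilobase of exon, ITGB4 exceeded ITGA6 in every library. The ratio of the β4 to the α6 level was 5.27 and 4.72 in wild type and 3.49 and 3.75 in HSF1-pLVX cells. It was thus lower in both HSF1-pLVX libraries, as follows from a rise of ITGA6 beside an ITGB4 level with overlapping libraries. With 2 libraries a variant the smallest p of an exact permutation test is 0.33, so such ratios were not tested. The α6A and α6B forms, which differ by splicing, are counted together. Of the exonic bases of ITGA6, 5.37% are shared with genes on the opposite strand, none of which held more than 47 counts.

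COL17A1 and CD151, the other membrane components, moved in opposite directions. COL17A1 (ENSG00000065618.18, chromosome 10, 104031286 to 104086002, minus strand) encodes collagen XVII, also named BP180, which reaches from the plaque into the basement membrane. It stood at 1333 and 1255 CPM in wild type and at 1924 and 2209 in HSF1-pLVX cells, with no overlap. Its fitted log2 change was 0.68 ± 0.111 (SE) (edgeR quasi-likelihood F test, adjusted p = 9.168e-05). The replicates of HSF1-pLVX cells differed more than those of wild type cells, and the log2 ratio was 0.53 within replicate 1 and 0.82 within replicate 2. Per kilobase of exon, COL17A1 reached 0.625 and 0.66 of the ITGB4 level in wild type and 1.01 and 1.07 in HSF1-pLVX cells.

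CD151 (ENSG00000177697.17, chromosome 11, 832843 to 839831, plus strand) encodes a tetraspanin that binds the laminin-binding integrins and organises them in the membrane. It fell from 873.3 and 864.6 CPM in wild type to 358.4 and 378.5 in HSF1-pLVX cells. Both replicates of each variant lay close together, and the fall was many times larger than their spread. The log2 fold change was -1.24 ± 0.096 (SE), a 2.36-fold decrease (edgeR quasi-likelihood F test, adjusted p = 4.966e-08). Of the exonic bases of CD151, 7.57% are shared with genes on the opposite strand, mainly POLR2L. That gene held 4324 and 4274 counts in wild type and 2841 and 2407 in HSF1-pLVX cells, so it was lower in the same libraries as CD151, and its part in the CD151 value was not tested. The strand setting of the counting is not stated, so reads from these bases cannot be told apart.

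The 2 plakins also moved in opposite directions. PLEC (ENSG00000178209.14, chromosome 8, 143915147 to 143976734, minus strand) encodes plectin, which links β4 to keratin filaments and also binds other filament types outside the hemidesmosome. It held 5468 and 4844 CPM in wild type, the highest CPM of the 9 genes, and 1992 and 2039 in HSF1-pLVX cells. The wild type replicates differed from each other, but neither came near the HSF1-pLVX values. Its fitted log2 change was -1.35 ± 0.117 (SE), a 2.56-fold decrease (edgeR quasi-likelihood F test, adjusted p = 1.476e-07). DST (ENSG00000151914.19, chromosome 6, 56457987 to 56954628, minus strand) encodes the dystonins, of which the epithelial form is BP230. Its levels were 384.6 and 321.6 CPM in wild type and 465.1 and 542.3 in HSF1-pLVX cells.

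The libraries of DST did not overlap, although the gap between them was smaller than for most of the other genes. The log2 fold change was 0.51 ± 0.112 (SE) (edgeR quasi-likelihood F test, adjusted p = 0.001004), with 0.27 within replicate 1 and 0.75 within replicate 2. Without HSF1-pLVX replicate 2 it was 0.41 and no longer passed the test (adjusted p = 0.1008 in the same test), so this call rests on that library. Per kilobase of exon, PLEC exceeded DST by 35.4-fold and 37.5-fold in wild type and by 10.7-fold and 9.37-fold in HSF1-pLVX cells. The exons of DST span 42341 bases over many forms, of which the epithelial BP230 uses only a part, so its level per kilobase is a low estimate for that form. The counts do not separate the epithelial, neuronal and muscle forms of DST or the many first exons of PLEC.

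**Figure D2:**
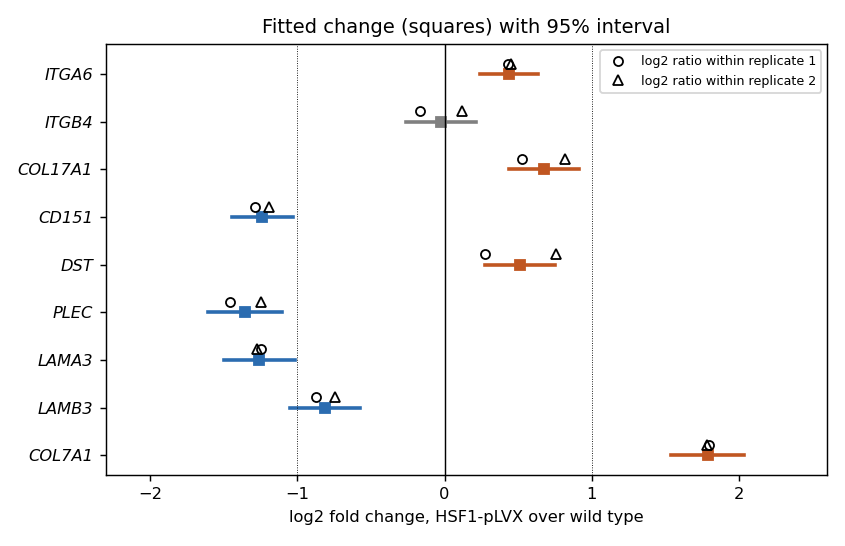
Log2 fold change of HSF1-pLVX over wild type cells for the 9 genes, with squares for the fitted value, lines for its 95% interval, open circles and triangles for the ratio within replicates 1 and 2, and dotted lines at 2-fold. COL7A1 stands farthest to the right at 1.79 and PLEC farthest to the left at -1.35, and only the interval of ITGB4 spans 0.

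Both listed chains of laminin-332 were lower in HSF1-pLVX cells. LAMA3 (ENSG00000053747.15, chromosome 18, 23689443 to 23955066, plus strand) encodes the α3 chain, whose end binds the integrins. It fell from 3839.5 and 3609.7 CPM in wild type to 1622 and 1493 in HSF1-pLVX cells. LAMB3 (ENSG00000196878.14, chromosome 1, 209614870 to 209652466, minus strand) encodes the β3 chain and fell from 3329.6 and 3011 to 1823 and 1797 CPM. Neither gene showed overlap between the variants. The fitted log2 changes were -1.26 ± 0.112 (SE) for LAMA3 and -0.81 ± 0.11 (SE) for LAMB3 (edgeR quasi-likelihood F test, adjusted p = 2.078e-07 and 1.608e-05).

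LAMA3 and LAMB3 did not fall in equal measure. The ratio of LAMB3 to LAMA3 per kilobase of exon was 2.5 and 2.41 in wild type. In HSF1-pLVX cells it was 3.24 and 3.47, higher in both libraries than in either wild type library. The exons of LAMA3 span 13522 bases over a longer and a shorter form, and laminin-332 holds the shorter α3 chain. The LAMA3 level per kilobase may thus be a low estimate for that chain, so the size of the ratio is not a measure of chain numbers.

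The windows upstream of the start sites of the 2 listed chains are shown because the genes fell together and their windows hold the same short motif. RefSeq (GRCh38.p14) gave 11 start windows for 6 of the 9 genes, and ITGB4, PLEC and CD151 had none in the table. The motif TGANTCA, the site type bound by AP-1 factors, reads the same on both strands. It was found in the 250 bases before a start in 2308 of 35116 windows of all genes (6.57%). Among the 9 genes it occurred in the LAMA3 window and in 1 of the 3 LAMB3 windows. The matches are in capitals below with 10 bases on either side, from chr18:23872885-23872911 and chr18:23872941-23872967 (plus strand) and chr1:209651425-209651451 (minus strand).
LAMA3, 125 bases before the start: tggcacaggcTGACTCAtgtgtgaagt
LAMA3, 69 bases before the start: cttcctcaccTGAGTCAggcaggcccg
LAMB3, 67 bases before the start: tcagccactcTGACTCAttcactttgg
The LAMA3 window belongs to the internal start of the gene, from which the shorter α3 chain of laminin-332 is transcribed, and the gene counts do not separate this chain from the longer one. Both LAMA3 matches lie in bases that the GENCODE annotation counts as exon. A match describes the letters only. Whether a factor binds there was not measured.

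COL7A1 showed the largest change of the 9 genes. It encodes collagen VII, of which anchoring fibrils are made (ENSG00000114270.17, chromosome 3, 48564073 to 48595267, minus strand). Its levels were 73.1 and 88.8 CPM in wild type and 254.6 and 304.9 in HSF1-pLVX cells. The lowest HSF1-pLVX library was well above the highest wild type library. The log2 fold change was 1.79 ± 0.115 (SE), a 3.45-fold rise (edgeR quasi-likelihood F test, adjusted p = 6.899e-09), higher than 94.8% of the log2 fold changes of all tested genes. The fit without one or another of the libraries gave 1.66 to 1.92. It stayed far below the other collagen of these junctions, and its level per kilobase of exon was 0.0318 and 0.0411 of that of COL17A1 in wild type and 0.0768 and 0.0801 in HSF1-pLVX cells.

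The window of COL7A1 is shown because HSF1 binds inverted GAA repeats and the window holds one. The motifs GAANNTTC and TTCNNGAA, cores of the heat shock element that each read the same on both strands, were searched in the same windows. GAANNTTC was present in 5.78% and TTCNNGAA in 6.62% of all windows. Of the 11 windows of the 9 genes, GAANNTTC was found in that of COL7A1 and in 1 of the 3 of DST, and TTCNNGAA in none. The match is in capitals in the COL7A1 window (chr3:48595330-48595579, minus strand, ending at the base before the start), and in the site of DST (chr6:56852024-56852051, minus strand).
COL7A1: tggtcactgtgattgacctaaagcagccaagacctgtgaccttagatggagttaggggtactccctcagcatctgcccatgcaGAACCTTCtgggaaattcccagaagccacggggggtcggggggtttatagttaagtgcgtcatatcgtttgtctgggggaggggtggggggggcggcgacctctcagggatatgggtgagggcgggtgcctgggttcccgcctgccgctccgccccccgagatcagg
DST, 136 bases before the start: ctttgttttcGAAACTTCgagttagttg
The DST match lies in the window of the start at 56851905, and the windows of the starts at 56954830 and 56642889 held none. Which of these starts serves the epithelial form BP230 was not examined. Both COL7A1 and DST were among the 4 genes called higher, and so were ITGA6 and COL17A1, whose windows held neither core. Binding of HSF1 at these windows was not measured.

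The order of the 9 genes was set on CPM per kilobase of exon, since only levels per length can be compared between genes. In wild type cells LAMB3 was highest with a mean of 676.3, followed by ITGB4 (313.8), PLEC (303.5), LAMA3 (275.4), CD151 (220.7), COL17A1 (201.4), ITGA6 (62.8), DST (8.34) and COL7A1 (7.31). ITGB4 and PLEC overlapped between libraries, and so did DST and COL7A1, while all other neighbours were apart. In HSF1-pLVX cells LAMB3 was still highest with 386.1, followed by COL17A1 (321.6), ITGB4 (308.7), PLEC (118.6), LAMA3 (115.2), CD151 (93.6), ITGA6 (85.3), COL7A1 (25.3) and DST (11.9). Here COL17A1 overlapped with ITGB4, and PLEC with LAMA3. COL17A1 went from sixth to second place, and COL7A1 and DST changed places. In wild type cells CD151 instead was highest when levels were divided by the longest coding length of each gene. The same division in HSF1-pLVX cells put LAMB3 at place 1, CD151 at 2, COL17A1 at 3 and PLEC at 7. The places of CD151, COL17A1 and PLEC in HSF1-pLVX cells thus depend on the length used. The place of LAMA3 rests on the exons of both its forms, which may give a low estimate for the shorter one.

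Among the other laminin chains, several rose while LAMA3 and LAMB3 fell. LAMA5, the α chain of the laminins of most mature basement membranes, stood at 351.4 and 360.3 CPM in wild type and at 691.2 and 723.3 in HSF1-pLVX cells. Its log2 fold change was 0.99 ± 0.095 (SE) (edgeR quasi-likelihood F test, adjusted p = 4.211e-07). LAMB1 and LAMC1, the common β and γ partners, rose by log2 fold changes of 0.89 and 0.33 (adjusted p = 1.117e-06 and 0.008177 in the same test). LAMB2 had one of -0.03 and did not pass the test (adjusted p = 0.7656). The call of LAMC1 was lost without wild type replicate 2 (log2 fold change 0.21, adjusted p = 0.1225) and without HSF1-pLVX replicate 2 (0.35, adjusted p = 0.1061).

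As a share of the α chain levels per kilobase, LAMA3 made up 91.5 and 90.8% in wild type and 69.9 and 67.2% in HSF1-pLVX cells. The share of LAMA5 went from 7.92 and 8.58% to 28.2 and 30.8%. LAMB3 fell from 91.5 and 91.1% of the β chains to 81.8 and 80.7%. In both chain types the laminin-332 chain stayed the most abundant in every library, with a smaller share in both HSF1-pLVX libraries than in either wild type library. The shares of the α chains take LAMA3 over the exons of both its forms, so their size depends on that length.

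**Figure D3:**
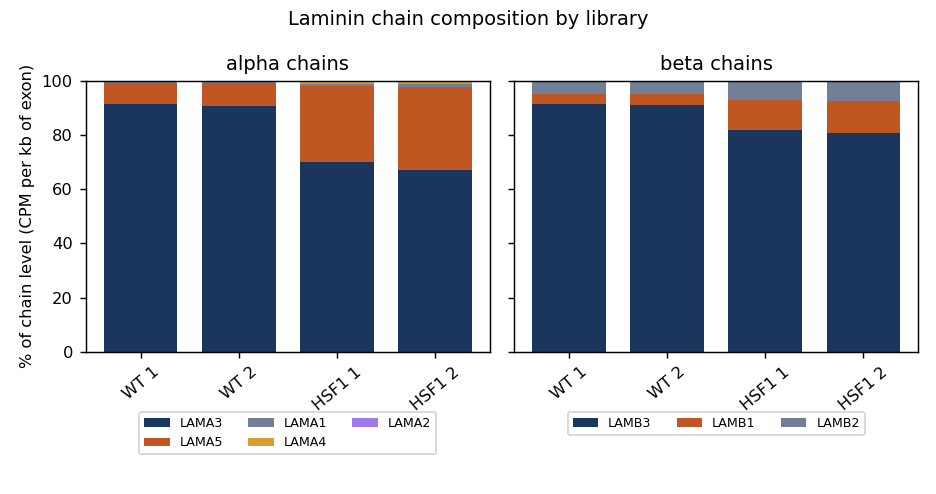
Share of each laminin chain within the α and β chains, in percent of CPM per kilobase of exon, with 1 bar per library. The dark segments are LAMA3 and LAMB3, and that of LAMA3 shrank from 91.5 and 90.8% in wild type to 69.9 and 67.2% in HSF1-pLVX cells as that of LAMA5 grew.

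A further 6 lists of 65 genes covered the basement membrane, laminin receptors and plakins, and also keratins, enzymes and signalling genes. Of these genes 61 were tested, 20 called higher and 37 lower, where 32.7% and 33.2% of all tested genes were. Their median was -0.53 on the log2 scale, beside 0.02 over all tested genes. Of 16 tested basement membrane genes, 8 rose and 7 fell. The collagen IV chains also moved in both directions. COL4A1 and COL4A2, which assemble with each other, had log2 fold changes of -2.51 and -1.77, while COL4A5 and COL4A6, which also assemble with each other, rose by 0.74 and 1.29. COL4A4 fell by 2.79 from 52 and 47 counts. COL4A1 and COL4A2 lie on opposite strands and their spans overlap. NID2, a nidogen that links laminin to collagen IV, went from 61.4 and 60.0 CPM to 0.358 and 0.302, with 9 and 6 counts left in HSF1-pLVX cells. LAMA2 fell by 3.26 and LAMA1 rose by 1.93, from between 106 and 133 counts in wild type cells. All 8 of these genes were called, COL4A5 with the highest adjusted p (5.417e-06, edgeR quasi-likelihood F test).

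Of 9 tested genes for other laminin receptors and tetraspanins, 3 rose and 6 fell, beside 32.7% and 33.2% of all tested genes. ITGA3 and ITGB1, which form the α3β1 laminin receptor, had log2 fold changes of -0.53 and -0.71 (edgeR quasi-likelihood F test, adjusted p = 0.0007367 and 1.984e-05). CD9 and CD63, tetraspanins like CD151, had log2 fold changes of -1.53 and -1.17, whereas the tetraspanin CD82 rose by 1.88, from 122.8 and 117.8 CPM to 439.6 and 448.9. BCAM, a receptor for the LAMA5 chain, rose by 1.36. Of the tetraspanins measured, CD151, CD9, CD63 and CD81 were thus lower and CD82 higher, with the call of CD81 lost without HSF1-pLVX replicate 1 (log2 fold change -0.27, adjusted p = 0.06941, edgeR quasi-likelihood F test).

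Of the 5 other plakins, 4 were called lower and none higher, beside 33.2% and 32.7% of all tested genes. EPPK1 (epiplakin) fell by 3.75 on the log2 scale, and MACF1 and EVPL had log2 fold changes of -1.19 each, while DSP, the desmosomal plakin, had a log2 fold change of -0.08 and did not pass the test (edgeR quasi-likelihood F test, adjusted p = 0.5328). DST was therefore the one tested plakin that was called higher. EPPK1 consists of repeats that resemble those of PLEC, and reads that fit both could be split between them, so its value is uncertain.

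Keratins, the filaments to which PLEC and BP230 attach, fell in 9 of 11 genes, beside 33.2% of all tested genes called lower. KRT5, the type II keratin of basal cells, rose from 2138 and 2088 CPM to 4293 and 4890. Its usual partner KRT14 fell from 542.3 and 518 CPM to 46.8 and 43.4, and KRT15, another type I keratin of basal cells, rose from 702.8 and 758.7 to 3143 and 4015. KRT8 of simple epithelia fell by 3.24 on the log2 scale. All 4 changes passed the test, with the largest adjusted p of 1.025e-06 for KRT5 (edgeR's quasi-likelihood test). KRT14, KRT16 and KRT17 are close paralogs, as are KRT6A and KRT6B, so the split of their reads is uncertain. The spans of KRT8 and KRT18 overlap on opposite strands.

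Among 10 enzymes that process or shed these proteins, 2 were called higher and 7 lower, beside 32.7% and 33.2% of all tested genes. BMP1, which trims laminin-332 and collagen VII, had a log2 fold change of -0.95 and MMP2 one of -1.95, and MMP14 had a log2 fold change of 0.11 and did not pass the test (edgeR quasi-likelihood F test, adjusted p = 0.3077). ADAM9, ADAM10 and ADAM17 can shed collagen XVII. Their log2 fold changes were -1.51, -0.41 and 0.56, and the call of ADAM10 was lost without HSF1-pLVX replicate 2 (-0.34, adjusted p = 0.0638, edgeR quasi-likelihood F test). TGM2, a transglutaminase, fell from 408.8 and 351.1 CPM to 52.0 and 36.0, and TLL1, a relative of BMP1, rose by 2.43 from 23 and 7 counts in wild type to 97 in both HSF1-pLVX libraries. The call of TLL2, with at most 15 counts in a library, was lost under DESeq2's Wald test (adjusted p = 0.2722) and with any library left out.

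In the list of signalling partners and regulators 5 of 10 rose and 4 fell, beside 32.7% and 33.2% of all tested genes. TP63, which encodes the p63 factor of basal epithelial cells and is known to act on several hemidesmosome genes, showed the largest rise, from 10.4 and 8.99 CPM in wild type to 105.8 and 109.9 in HSF1-pLVX cells. Its log2 fold change was 3.48 ± 0.103 (SE) (edgeR quasi-likelihood F test, adjusted p = 5.077e-12). EGFR, which signals together with α6β4, rose by 0.83 on the log2 scale. ERBB2 fell from 245 and 224.4 CPM to 105.5 and 109.3, and FYN from 80.0 and 78.8 to 32.5 and 38.7. FERMT1 (kindlin-1) had a log2 fold change of 0.08 and did not pass the test (adjusted p = 0.4158 in the same test).

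**Figure D4:**
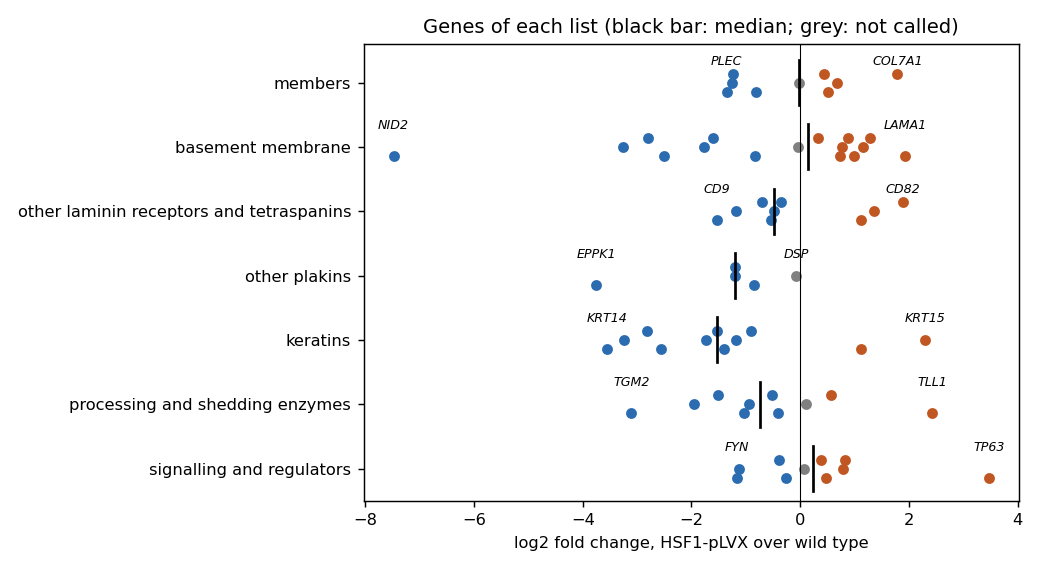
Log2 fold change of HSF1-pLVX over wild type cells for each tested gene of the 9 listed genes (members) and of the 6 further lists, with orange for genes called higher, blue for genes called lower, grey for genes not called and a black bar for the median. The 9 genes spread on both sides of 0, from -1.35 for PLEC to 1.79 for COL7A1, and the keratins lie mostly to the left with a median of -1.54.

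The genes most like ITGA6 and LAMB3 were sought by the distance between log2 CPM profiles over the 4 libraries, each centred on its mean, among 11982 genes with a mean of at least 50 counts. CRTC1, SPICE1 and FARS2 were nearest to ITGA6, at distances of 0.0158, 0.0174 and 0.0187. Near LAMB3 were FAM83G and GYS1, at 0.021 and 0.0277. Over 4 libraries in 2 variants such a likeness mostly says that a gene changed by the same amount, and none of the other 8 genes was among them.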

How the data were processed

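RNA-seq libraries of MCF10A cells, 2 wild type and 2 HSF1-pLVX, were grouped by the variant in their labels. The authors deposited raw counts per gene on hg38, and per the labels used HISAT2 2.0.5, SAMtools 1.13 and featureCounts 1.6.5. Strand, overlap and multi-mapping settings are not given in the sources used here. The authors also deposited log2-like values normalized with DESeq2 1.32.0, whose transformation is not stated and which served only as an alternative for fold changes.

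Counts were tested in R 4.3.3 with edgeR 4.0.16 (TMM, filterByExpr, quasi-likelihood, 2 groups, no replicate block), with Benjamini-Hochberg adjustment over all 15830 tested genes and a call at an adjusted p of 0.05. The standard error is the log2 fold change divided by the square root of F, and 95% intervals use it. The replicate block was left to an alternative because no source says that a number marks a shared culture. Replicates differed by more than sampling noise (chi-square per degree of freedom 4.386 between wild type and 5.303 between HSF1-pLVX libraries). Symbols came from GENCODE release 44 and reached 98.1% of tested genes. Gene positions span all exons in the count table. Levels per kilobase divide CPM by the exon length in that table. Promoter windows are those of RefSeq.

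The 9 genes and the lists were chosen with earlier results of these data known, and no list was given a set test. From each list the text names up to 2 rises and up to 2 falls, the largest of the called genes that moved one way in both replicate numbers, with at least 50 counts in each library of the higher variant. Laminin chains, collagen IV chains and integrins, tetraspanins, plakins and enzymes outside that rule were named after their values were seen. Counts of 15830 genes were simulated for this comparison, with 200 genes changed. Of the 2-fold changes 72% and of the 4-fold changes 98% were recovered, and 10.5% of calls were false. That false share is above the threshold of 0.05. In the data 65.9% of tested genes were called, far more than were changed in the simulation, so these shares may not carry over. The alternatives were DESeq2 1.42.0, limma-voom 3.58.1, other normalizations, filters and call thresholds, the block, each library left out in turn, the deposited values and coding length. Some results are not reported here.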

Additional observations from a re-analysis of the deposited data

How the results depend on the processing

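No fold change of the 9 genes, or of the genes of the further lists, changed direction among calls under another normalization, filter, test or design or with a library left out. Of 117 alternative values for the 9 genes, 115 stayed on their side of the threshold or within the replicate spread. The exceptions were DST without HSF1-pLVX replicate 2, where the log2 fold change lay between 0.37 and 0.66 over the libraries left out, and ITGA6 on the deposited normalized values, with a difference of 0.41. For the further lists, 20 of 741 alternative values lost their call, namely LAMC1, DAG1, TLL2, ADAM10, PLAU, MET, SHC1 and PTPN11 without HSF1-pLVX replicate 2, LAMC1 and TLL2 without wild type replicate 2, MET and TLL2 without wild type replicate 1, CD81 and TLL2 without HSF1-pLVX replicate 1, and TLL2 or MET under 4 other settings. The cause was not tested. Asking for a 2-fold change, which leaves out smaller changes by construction, left 2358 genes higher and 2218 lower. Of the 9 genes it left 1 higher and 3 lower, and of the further lists 10 genes higher and 25 lower. With the replicate number as a block, 5138 genes were called higher and 5171 lower, against 5175 and 5253 without it, and 4 of the 9 genes were higher and 4 lower in both. The log2 fold change under the block stayed on its side of the threshold for all 9 genes and was lost for TLL2 and MET. Deviations of same-numbered libraries correlated at 0.000765 over all tested genes and at -0.111 over 9473 genes above 8 CPM, and the crossed pairing, added after seeing the data, called 5429 genes higher and 5487 lower. Lengths from RefSeq proteins were not run, and the longest GENCODE coding length, chosen after seeing the files, moved 10 of 18 places in the order of levels. With 2 libraries a group, small changes such as those of DST and ITGB4 are limited by the replicate spread and not by depth.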
